A study of Mus musculus with 2 samples.

Results

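The contractile keratinocytes described here are the Krt14-rich epidermal cells with the highest RNA levels of 3 genes, Acta2, Cnn1 and Fhl1. Acta2 and Cnn1 belong to the smooth muscle contractile apparatus, and Fhl1 encodes a LIM-domain protein of muscle. Cells with Krt14 at 1000 CPM (UMI counts scaled to a common library total) or more, hereafter Krt14-high cells, were scored by the mean of log2(CPM + 10) of the 3 genes. The 15% with the highest score over both libraries were taken. This gave 459 cells of 3062 Krt14-high cells and of 3686 cells in all, with 253 in the library labelled knockout and 206 in the library labelled wild type. They were set against the other 1107 and 1496 Krt14-high cells of the same libraries. The rule used the RNA values themselves, so the difference between contractile and other Krt14-high cells is given as a description, with no test, and supports nothing beyond it.

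Both libraries came from epidermal cells of newborn C57BL/6 mice, at age P1, cultured in medium M254 with human melanocyte growth supplement and sequenced with a droplet 3′ kit that counts unique molecular identifiers (UMIs). The labels give about 6000 viable cells processed for each library, of which the deposited tables hold 1760 labelled knockout and 1926 labelled wild type. The library labelled knockout was made from 9 pooled neonates that carried a floxed Bap1 gene and the recombinase CreERT2 at the Rosa26 locus. The library labelled wild type was made from 11 pooled neonates with Rosa26-CreERT2 and without the floxed gene. Both cultures were treated with 100 nM 4-hydroxytamoxifen over 4 days and harvested 3 days later, so the recombinase and the drug were common to both, and every cell type that carried the recombinase was exposed. Bap1 encodes a deubiquitinase of histone H2A. With 1 pooled culture and 1 library per genotype there were no replicates, no test was possible, and all 95% intervals cover counting error only.

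Smooth muscle cells contract by sliding filaments of alpha smooth muscle actin (Acta2) along myosin, with calponin (Cnn1), transgelin (Tagln) and tropomyosins bound to the actin. Many of these genes are known targets of serum response factor (Srf), which binds a short sequence called the CArG box and is switched on by cofactors that sense the pool of free actin. In skin, Acta2 is best known from arrector pili and vessel muscle, from myoepithelial cells of sweat glands and from wound fibroblasts. Epithelial cells in culture can also make it, together with stress fibres and focal adhesions. Basal keratinocytes express Krt14, Krt5 and the transcription factor gene Trp63, and exchange them for cornification genes as they move upwards.

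The promoters of the 3 score genes and of Myl9, the gene of the regulatory light chain of smooth muscle myosin, are shown because CArG boxes lie in some of them and not in others. The sequences are RefSeq windows of assembly GRCm38.p6 that hold the 250 bases before a transcript start, 5′ to 3′ on the strand of the gene. Capitals mark a CArG box with at most 1 of its 6 middle letters other than A or T. The windows are chr19:34255374-34255623 on the minus strand for Acta2, chr9:22099003-22099252 on the plus strand for Cnn1, chrX:56779433-56779682 on the plus strand for Fhl1 and chr2:156775214-156775463 on the plus strand for Myl9.
Acta2: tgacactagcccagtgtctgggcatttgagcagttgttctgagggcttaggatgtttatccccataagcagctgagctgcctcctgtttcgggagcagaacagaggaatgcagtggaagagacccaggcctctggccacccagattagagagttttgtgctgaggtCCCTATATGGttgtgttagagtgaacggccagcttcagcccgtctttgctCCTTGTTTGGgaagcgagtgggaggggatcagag
Cnn1: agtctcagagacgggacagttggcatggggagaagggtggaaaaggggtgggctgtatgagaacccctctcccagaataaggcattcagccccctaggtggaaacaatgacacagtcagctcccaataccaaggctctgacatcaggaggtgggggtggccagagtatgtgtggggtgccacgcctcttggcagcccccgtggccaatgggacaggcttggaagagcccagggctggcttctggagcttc
Fhl1: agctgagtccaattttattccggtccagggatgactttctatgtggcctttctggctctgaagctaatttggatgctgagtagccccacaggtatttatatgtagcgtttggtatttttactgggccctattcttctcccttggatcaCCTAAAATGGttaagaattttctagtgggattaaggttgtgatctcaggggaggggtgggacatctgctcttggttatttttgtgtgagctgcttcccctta
Myl9: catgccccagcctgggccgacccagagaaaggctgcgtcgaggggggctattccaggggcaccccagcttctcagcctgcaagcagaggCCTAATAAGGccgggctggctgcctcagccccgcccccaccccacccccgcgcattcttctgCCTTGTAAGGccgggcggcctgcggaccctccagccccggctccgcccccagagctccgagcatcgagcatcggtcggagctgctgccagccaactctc
Acta2 had boxes whose first bases lay at -84 and -34 from the start, each with 1 middle letter off. Fhl1 had an exact box at -102, and Myl9 an exact box at -161 and another with 1 letter off at -99. The Cnn1 window held none. Other starts of Acta2, Cnn1 and Myl9 are annotated inside these windows, and a second window of Fhl1 held no box. Both Fhl1 windows lie inside the annotated gene, chrX:56731209-56793346, so they precede internal starts. No window before its first annotated base was searched.

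The limit was set by a fixed share of cells, so neighbouring scores lie on both sides of it by construction. The lowest score among them was 8.252 and the highest among the other cells 8.251. Within 0.5 of this limit lay 112 contractile cells above and 153 other cells below. The last 20 cells taken and the first 20 left out had median levels of 5153 and 3232 CPM for Acta2, 25.5 and 26.3 CPM for Cnn1 and 274 and 244 CPM for Fhl1. The set is defined as a range of a score, and whether its cells form a type of their own was not tested.

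**Figure D1:**
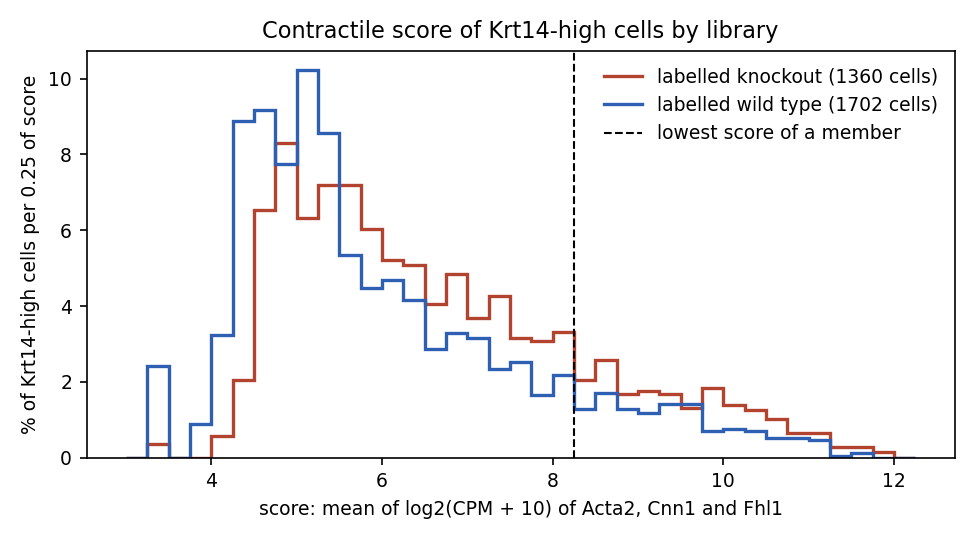
Distribution of the score (mean of log2(CPM + 10) of Acta2, Cnn1 and Fhl1) over Krt14-high cells, as the percent of each library's cells per 0.25 of score. The dashed line marks the lowest score taken, 8.252, and both curves run through it without a gap.

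Contractile cells were 18.6% (exact Clopper-Pearson interval 16.6 to 20.8%) of Krt14-high cells in the library labelled knockout and 12.1% (10.6 to 13.7%) in the library labelled wild type, a ratio of 1.54 (1.27 to 1.86). Of all cells they were 14.4% and 10.7%, a ratio of 1.34 (1.11 to 1.62), because Krt14-high cells were 77.3% of the library labelled knockout and 88.4% of the library labelled wild type. The intervals hold no spread between cultures. The ratio was 1.25 when Acta2 was left out of the score. Cells under the Krt14 limit rarely reached the same score, with 6 of 400 (1.5%) in the library labelled knockout and 3 of 224 (1.34%) in the library labelled wild type.

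The 3 score genes did not mark the same cells to the same degree. Among the 459 contractile cells, 155 lay in the top 15% of Krt14-high cells for all 3 genes, 225 for 2, 77 for 1 and 2 for none. No Cnn1 UMI was found in 44 of them and no Fhl1 UMI in 4, whereas all had Acta2. Among the other Krt14-high cells, 2247 of 2603 were in the top 15% for none of the genes and none was so for all 3.

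The correlations between the 3 genes within the contractile cells are limited by the choice of cells on the sum of those genes, which by itself lowers them, and are given only as a description. Spearman's correlation across cells was 0.09 for Acta2 and Cnn1 in the library labelled knockout (n = 253 cells) and 0.00497 in the library labelled wild type (n = 206). For Acta2 and Fhl1 it was 0.12 and 0.13, and for Cnn1 and Fhl1 0.04 and 0.12. Over all Krt14-high cells of the libraries labelled knockout and wild type the values were 0.44 and 0.41 for Acta2 and Cnn1, 0.56 and 0.53 for Acta2 and Fhl1 and 0.39 and 0.34 for Cnn1 and Fhl1. Across the same cells Acta2 had with Tagln, a gene outside the score, a correlation of 0.71 in the library labelled knockout (n = 1360) and 0.63 in the library labelled wild type (n = 1702). These are descriptions over cells that share a library and differ in depth.

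Depth differed between the groups of cells and is a measured companion of every comparison. Contractile cells had a median of 42948 UMIs in the library labelled knockout and 50365 in the library labelled wild type, against 35676 and 38104.5 in the other Krt14-high cells. Summed over the group they held 11232433 and 10504319 UMIs. Mitochondrially encoded genes took a median of 0.987% and 1.15% of their UMIs, against 1.12% and 1.29% in the others. When the score was computed on cells thinned to 8000 UMIs, the ratio of the shares was 1.63. The libraries shared 3 cell barcodes, and 3 contractile cells carried a shared barcode.

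Bap1 RNA did not follow the labels. It had 18.1 CPM in contractile cells labelled knockout and 14.8 CPM in contractile cells labelled wild type, against 19.5 and 13.8 CPM in the other Krt14-high cells. A 3′ tag outside the deleted part would not reveal a deletion, and which exons are removed is not stated in the labels. Directions between the libraries therefore rest on the labels.

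Alpha smooth muscle actin marked the cells most strongly by amount. Acta2 (chr19:34240336-34255585) had 8361 CPM in contractile cells labelled knockout against 1600 CPM in the other Krt14-high cells, and 6043 against 591 CPM in the library labelled wild type. Single contractile cells ran between 428 and 29317 CPM with a median of 7698 in the library labelled knockout, and between 106 and 22197 CPM with a median of 5274 in the library labelled wild type. Other cells had medians of 478 and 157 CPM and reached 14700 and 12113 CPM. The groups of cells therefore overlapped in each library, even for a gene of the score.

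Calponin separated the groups by a larger ratio. Cnn1 (chr9:22099221-22109221), whose product stabilises smooth muscle actin filaments, had 369 CPM in contractile cells and 14.3 CPM in the other cells of the library labelled knockout, and 360 and 12.5 CPM in the library labelled wild type. Fhl1 (chrX:56731209-56793346), which encodes a LIM-domain protein of muscle, had 461 and 50.8 CPM, and 498 and 53.5 CPM, in the same order. Detection had to be read at equal depth. In cells thinned to 8000 UMIs, Cnn1 was found in 71.1% and 72.3% of contractile cells and in 6.59% and 8.96% of the others, and in 9.25% and 4.02% of cells under the Krt14 limit. The cells under the limit measure no pure background, since Krt5 was found in 49.8% and 69.2% of them at the same depth. The order of the 2 Cnn1 shares differed between the libraries, so no difference between them is read.

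The genes of the contractile apparatus that the score did not use moved with it. Of the list of smooth-muscle-type contractile genes without the 3 score genes, 17 could be measured with at least 20 UMIs in the library labelled knockout, and 14 were at least 1.5-fold higher and 0 lower in contractile cells. In the library labelled wild type 15 of 19 were higher and 1 lower, the last being Smtnl2 with 1 UMI in contractile cells. Over all genes with as many UMIs, 6.5% were higher and 16.8% lower in the library labelled knockout, and 9.04% and 15.3% in the library labelled wild type. The median log2 ratio of the list was 1.35 and 1.23, against -0.15 and -0.12 over all genes. The rule used this contrast, so nothing further is read from these counts. The shares over all genes are also the scale for the other list counts of contractile over other cells.

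Transgelin and the myosin light chain were among the strongest. Tagln (chr9:45929628-45936058), which encodes an actin-bundling protein, had 4097 CPM in contractile cells labelled knockout against 546 CPM in the others, a log2 ratio of 2.91 (2.88 to 2.93), and 3839 against 412 CPM in the library labelled wild type, 3.22 (3.20 to 3.24). Myl9 (chr2:156775408-156781657) had 1333 against 259 CPM, 2.37 (2.33 to 2.40), and 723 against 84.1 CPM, 3.10 (3.05 to 3.16). Single cells again overlapped. Tagln had a median of 3504 CPM in contractile cells labelled knockout and 88.3 CPM in the others, while the highest of the others reached 9178 CPM. The Tagln locus overlaps Pcsk7, so a part of its tags could belong to either gene.

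Other actins and thin-filament genes were higher too. Actg2, the gamma actin of visceral smooth muscle, had 149 CPM against 7.14 CPM in the library labelled knockout and 36.9 against 3.73 CPM in the library labelled wild type, although a single cell held 29.6% of its UMIs among the contractile cells of one library. Acta1, the actin of skeletal muscle, had 1490 against 331 CPM, and 515 against 133 CPM. Most of its RNA came from a part of the cells, as given below for the skeletal muscle list. Actin transcripts are near-identical in their coding parts, so reads shared between them are uncertain. Tpm2, a tropomyosin gene, had 2984 against 1270 CPM, and 2582 against 1005 CPM. Tpm1, also a tropomyosin gene, differed less, with 6230 against 4896 CPM, a log2 ratio of 0.35, and 6901 against 4310 CPM, a log2 ratio of 0.68.

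Genes that mark mature smooth muscle were low or absent in absolute terms. Lmod1, which encodes an actin filament nucleator, had 21.8 against 2.72 CPM in the library labelled knockout and 15.8 against 1.23 CPM in the library labelled wild type. Myh11, the smooth muscle myosin heavy chain and the most specific marker of the lineage, rested on 53 UMIs in contractile cells labelled knockout and 22 in those labelled wild type, 4.72 and 2.09 CPM, against 0.28 and 0.23 CPM in the others. Mylk, the kinase that activates myosin, had 6 and 4 UMIs. Desmin (Des) had 4 and 0 UMIs, and Myocd, the gene of the smooth muscle cofactor of Srf, had 0 in both.

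**Figure D2:**
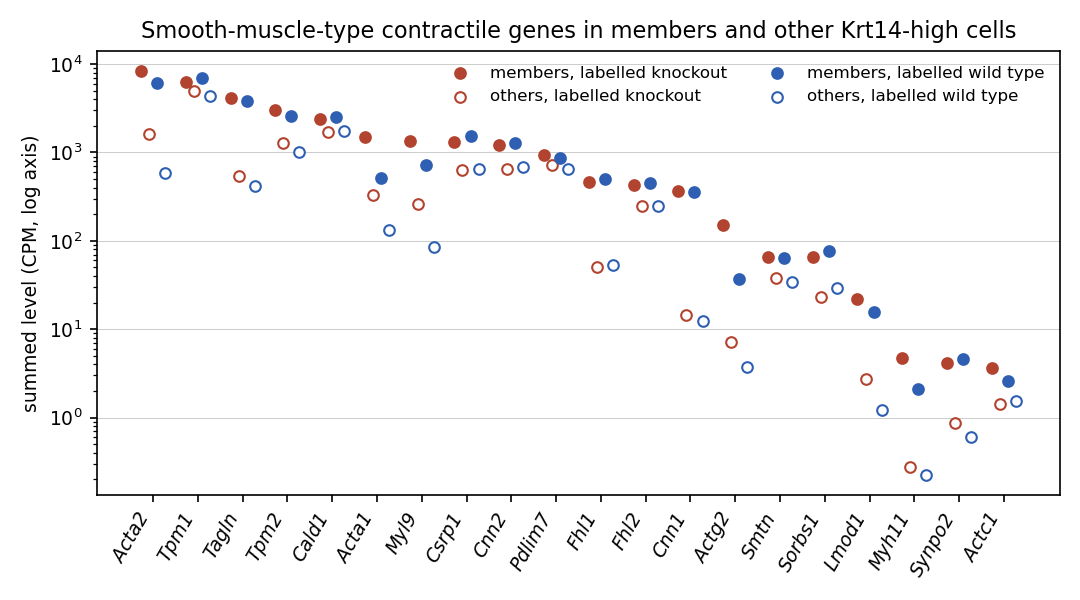
Summed level (CPM, log axis) of smooth-muscle-type contractile genes in contractile cells (filled, named members in the legend) and other Krt14-high cells (open) of each library. Filled points lie above open points of the same colour for every gene drawn, and Cnn1 with 369 against 14.3 CPM in the library labelled knockout shows a wide gap while Tpm1 shows a narrow one.

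Markers of other cell types were compared as summed levels, and the muscle lists were higher in contractile cells while the fibroblast list was not. Fibroblast markers, 12 genes with the collagens Col1a1 and Col3a1 among them, summed to 15.2 CPM in contractile cells labelled knockout and 16.8 CPM in those labelled wild type, against 14.4 and 18.6 CPM in the others. Col3a1, Lum and Dpt had 0 UMIs in the contractile cells of both libraries. The 11 markers of vascular smooth muscle and pericytes summed to 331 and 347 CPM, against 221 and 196 CPM, and Kcnj8 and Abcc9 were at 0. Most of that sum was Mcam, an adhesion molecule gene also found outside vessels, with 310 against 185 CPM, and 323 against 165 CPM. The skeletal muscle list summed to 1513 and 539 CPM, against 359 and 161 CPM, nearly all from Acta1, with Myog, Myod1, Pax7 and Myh3 at 0. Its median per cell was only 92.6 and 60.1 CPM in contractile cells, against 79.0 and 44.0 CPM in the others. The highest contractile cell had 36035 and 15028 CPM, and the highest of the others 13846.5 and 24612 CPM.

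Other cell types added little RNA. The list for sweat gland and myoepithelial cells summed to 5.96 and 6.28 CPM in contractile cells, against 9.85 and 11.0 CPM, with Foxi1, Oxtr and Aqp5 at 0. Melanocyte markers summed to 235 and 244 CPM, against 325 and 324 CPM in the others. Schwann cell markers summed to 25.5 and 39.1 CPM, against 30.0 and 49.2 CPM, and myeloid markers to 17.9 and 26.8 CPM, against 17.2 and 25.9 CPM. Endothelial markers summed to 1.602 and 1.999 CPM, against 1.73 and 2.94 CPM, and Merkel cell markers to 13.1 and 10.5 CPM, against 12.2 and 8.99 CPM. The part of these genes in the results was not tested.

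Across all genes, 138 of 11481 tested (1.2%) were at least 2-fold higher in contractile cells of both libraries and 329 (2.87%) were lower. A gene was tested with at least 100 UMIs in the Krt14-high cells of each library. The higher genes include the 3 score genes, which chose the cells. The medians of the log2 ratios lay below 0, at -0.14 in the library labelled knockout and -0.11 in the library labelled wild type. With ratios centred on those medians, 195 genes were higher and 272 lower. The ratios given here are not centred.

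Nppb, Uts2b and Dio3 were among the 12 genes with the highest mean ratios. Nppb, the gene of a natriuretic peptide of heart muscle, had 1424 CPM in contractile cells labelled knockout against 288 CPM, and 3090 against 353 CPM in the library labelled wild type. Uts2b, a vasoactive urotensin-related peptide gene, had 177 against 21.6 CPM, and 154 against 8.68 CPM. Its RNA came from a part of the cells, since the median contractile cell had 11.2 CPM in the library labelled knockout and the highest 5643 CPM. Dio3, which encodes an enzyme that inactivates thyroid hormone, had 28.8 against 2.76 CPM, and 10.0 against 0.534 CPM, although a single cell held 21.0% of its UMIs among the contractile cells of one library.

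The remaining genes of the 12 highest mean ratios were less abundant or of other kinds. Kcnmb1, a subunit of the potassium channel of smooth muscle, had 12.5 against 1.66 CPM, and 14.8 against 1.29 CPM. It overlaps Kcnip1. Thy1, a surface glycoprotein gene, had 18.3 against 2.99 CPM, and 19.3 against 2.59 CPM. Ifi27l2b had 55.9 against 6.56 CPM, and 32.2 against 2.65 CPM. Fgf13, an intracellular relative of fibroblast growth factors, had 27.2 against 5.89 CPM, and 29.3 against 3.51 CPM, and Optc, a proteoglycan gene, had 8.37 against 1.45 CPM, and 10.9 against 1.6 CPM.

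Focal adhesion genes, which couple actin to the matrix through integrins, were higher as a group. In the library labelled knockout 13 of 23 were at least 1.5-fold higher and 0 lower in contractile cells, with a median log2 ratio of 0.62, and in the library labelled wild type 16 of 23 were higher and 0 lower, with a median of 0.80. Nexn, which encodes an actin-binding protein of adhesions, had 97.1 against 19.3 CPM in the library labelled knockout and 102 against 15.7 CPM in the library labelled wild type. Tgfb1i1 (Hic-5), a paxillin relative, had 162 against 43.3 CPM, and 116 against 23.7 CPM. Vinculin (Vcl) had 210 against 112 CPM, and 223 against 103 CPM, whereas paxillin itself (Pxn) had 55.0 against 53.7 CPM, and 56.4 against 51.2 CPM.

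More integrin and matrix genes were higher than lower in contractile cells. Over all genes 6.5% were higher and 16.8% lower in the library labelled knockout, and 9.04% and 15.3% in the library labelled wild type. Of 11 measured integrins 5 were higher and 2 lower in the library labelled knockout, and 4 were higher and 0 lower in the library labelled wild type. Itga5, a subunit of the fibronectin receptor, had 116 against 39.4 CPM, and 89.6 against 24.5 CPM. Its ligand fibronectin (Fn1) had 1690 against 865 CPM, and 771 against 279 CPM. Of 25 matrix genes 8 were higher and 4 lower in the library labelled knockout, and 13 were higher and 4 lower in the library labelled wild type. The median log2 ratios were 0.43 and 0.53 for integrins and 0.39 and 0.62 for matrix genes.

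General cytoskeletal genes differed by less than the smooth muscle genes. Of 24 cytoplasmic actomyosin genes 9 were higher and 0 lower in each library, with medians of 0.42 in the library labelled knockout and 0.50 in the library labelled wild type. Beta actin (Actb) had 14040 against 8767 CPM, a log2 ratio of 0.68, and 12318 against 8585 CPM, 0.52. Non-muscle myosin (Myh9) differed by less than 1.5-fold, with 311 against 252 CPM, and 288 against 260 CPM.

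Among the measured regulators known to act upstream, Srf was higher and the others differed by less than 1.5-fold. Of 7 measured genes of Srf and its cofactors 1 was higher in each library and 0 lower, namely Srf itself, with 37.5 against 24.7 CPM, a log2 ratio of 0.60 (0.44 to 0.77), and 45.6 against 23.8 CPM, 0.94 (0.79 to 1.09). The cofactor Mrtfa had 28.6 against 25.5 CPM, and 28.6 against 19.5 CPM.

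Genes of the TGF-beta pathway, a known inducer of Acta2 in fibroblasts, gave no common direction. Of the ligands, receptors and regulators 2 of 23 were higher and 4 lower in the library labelled knockout, and 1 of 24 higher and 2 lower in the library labelled wild type. The ligand Tgfb1 had 56.6 against 58.5 CPM, and 60.3 against 65.0 CPM. Of 16 targets 4 were higher and 5 lower, and 5 higher and 2 lower. The inhibitory Smad7 had 53.1 against 69.5 CPM, and 40.1 against 70.0 CPM.

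Some YAP and TAZ targets, known to respond to cell spreading, were higher, while the list medians of 0.02 in the library labelled knockout and 0.13 in the library labelled wild type were near 0. Of 18 genes 5 were higher and 1 lower in the library labelled knockout, and 6 higher and 0 lower in the library labelled wild type. The tissue factor gene F3 had 1905 against 667 CPM, and 4093 against 1616 CPM. Ccn1, a secreted matrix protein gene, had 2044 against 1283 CPM, and 2384 against 1505 CPM. Ccn2 had 462 against 380 CPM, a log2 ratio of 0.28, and 571 against 346 CPM, 0.72.

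Few junction genes differed, and some genes of mesenchymal transition were higher. Of 18 junction genes 0 were higher and 1 lower in the library labelled knockout, and 1 was higher and 1 lower in the library labelled wild type, with E-cadherin (Cdh1) at 361 against 346 CPM, and 395 against 328 CPM. Of 10 genes of mesenchymal transition 4 were higher and 1 lower, and 3 higher and 1 lower, with a summed level of 500.3 against 261 CPM in the library labelled knockout and 576 against 318 CPM in the library labelled wild type. Snai2, a repressor also found in basal keratinocytes, had 80.9 against 29.4 CPM, and 119 against 46.7 CPM. Vimentin (Vim) had 13.3 against 14.2 CPM, and 15.5 against 20.6 CPM, and Twist1 had 0 and 1 UMIs in contractile cells.

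Most basal keratinocyte genes were higher in contractile cells. Of 14 measured basal genes 8 were higher and 2 lower in the library labelled knockout, and 10 higher and 1 lower in the library labelled wild type. Trp63, the master transcription factor gene of stratified epithelia, had 28.1 CPM in contractile cells labelled knockout against 10.6 CPM, a log2 ratio of 1.40 (1.19 to 1.61), and 57.9 against 21.2 CPM in the library labelled wild type, 1.45 (1.30 to 1.59). In cells thinned to 8000 UMIs, Trp63 was found in 20.9% of contractile cells labelled knockout (16.1 to 26.5%) and 31.6% of those labelled wild type (25.3 to 38.4%), against 7.68% and 14.4% of the other Krt14-high cells and 1.5% and 4.91% of cells under the Krt14 limit, whose median depths were 21337 and 15774.5 UMIs. Without thinning the shares were 45.8% and 80.6%, against 22.4% and 41.8%.

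Keratins did not follow a single pattern. Krt14 had 3781 against 5548 CPM, and 4564 against 6116 CPM, but the median cell differed little, with 3315 against 3093 CPM, and 4027 against 3928 CPM. Its log2 ratio was -0.55 and -0.42, but 0.35 and 0.27 against the other cells low in suprabasal and wound genes. Krt5, its partner, had 715 against 648 CPM, and 1404 against 1026 CPM. Krt18, a keratin of simple epithelia, had 9818 against 7157 CPM, and 5839 against 4344 CPM, and its partner Krt8 had 680 against 505 CPM, and 421 against 299 CPM. Of the hemidesmosome genes, which anchor basal cells, Dst had 83.9 against 34.0 CPM, and 160 against 64.1 CPM.

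Most genes of the cornification list and of the list of wound keratins and alarmins were lower in contractile cells. Of 9 measured suprabasal genes 7 were lower and 0 higher in the library labelled knockout, and 9 lower and 0 higher in the library labelled wild type. Ivl, the involucrin gene of the cornified envelope, had 17.6 against 113 CPM, and 12.4 against 66.8 CPM. Of 15 wound keratins and alarmins 12 were lower and 0 higher, and 12 lower and 1 higher, with the calcium-binding alarmin S100a8 at 5.16 against 52.2 CPM, and 14.7 against 163 CPM. The summed level of the wound list went the other way, with 22433 against 19278 CPM, and 23029 against 20895 CPM, because Krt17, a keratin of activated keratinocytes, made up most of it, with 21024 against 16451 CPM, and 21582 against 17453 CPM. When only other cells at or below the median of these lists were used for comparison, the list medians were nearer to 0. The suprabasal list then had -0.55 and -1.06, in place of -1.50 and -1.72, and the wound list -0.61 and -1.14, in place of -1.90 and -1.88.

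The 12 genes with the lowest mean ratios follow from the rule for named genes. Lrrc26, a channel subunit of secretory cells whose locus overlaps Grin1, had 1.16 against 23.8 CPM, and 0.762 against 16.1 CPM. Ly6d, a surface protein gene of differentiating keratinocytes, had 7.57 against 99.5 CPM, and 8.66 against 157 CPM. Arg1, the gene of arginase, had 8.55 against 118 CPM, and 26.6 against 239 CPM. Muc15, Klk6, Tmem45a, Cldn11, Bpifc, Prss27, Cwh43, Sprr1a and Clic3 completed the set. For Klk6, Ly6d, Tmem45a, Arg1, Sprr1a and Clic3 a single cell held over 20% of the UMIs of the contractile cells in a library. Against the other cells low in suprabasal and wound genes, 7 of the 12 kept a 2-fold or larger difference in the library labelled knockout and 10 did so in the library labelled wild type. In the library labelled knockout the log2 ratios were then 0.66 for Sprr1a, 0.0307 for Klk6, -0.0307 for Tmem45a, -0.60 for Bpifc and -0.91 for Prss27, and in the library labelled wild type -0.82 for Klk6 and -0.91 for Bpifc. Muc15 had -0.96 in the library labelled knockout when Fhl1 was left out of the score.

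**Figure D3:**
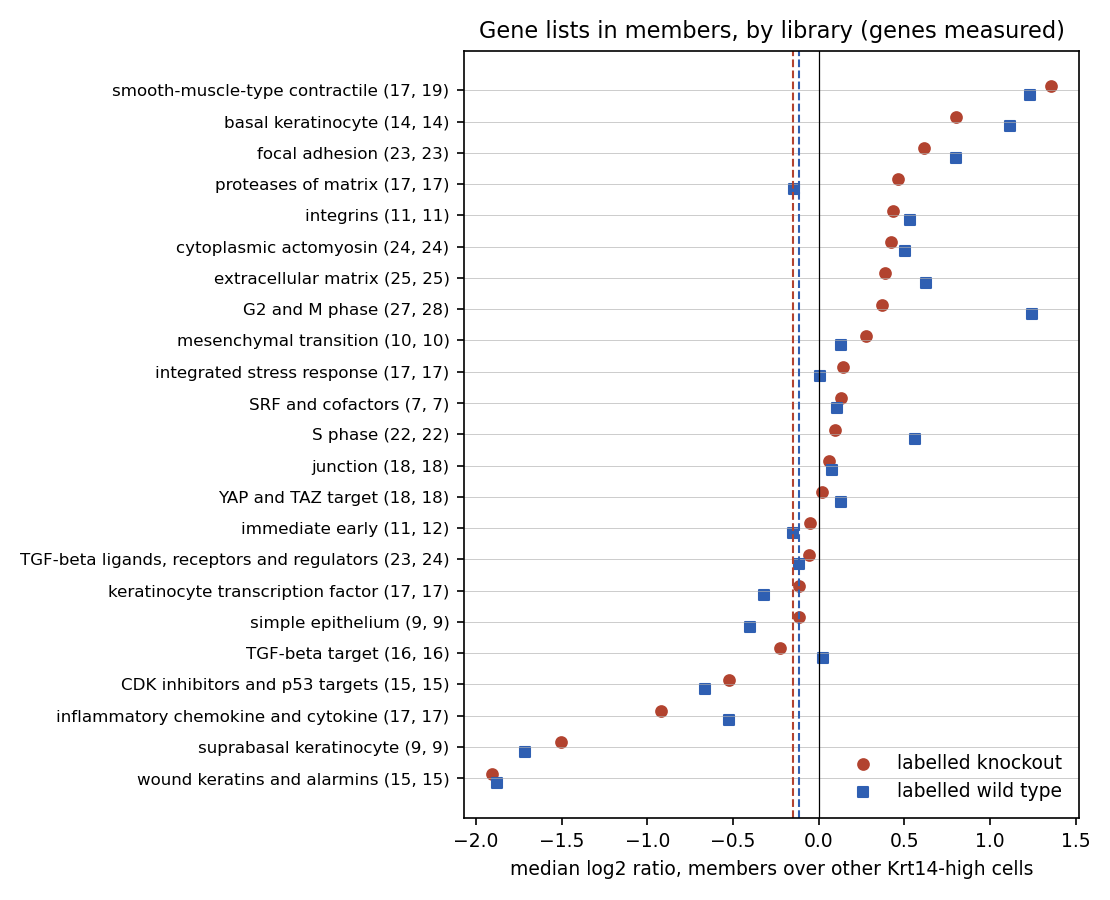
Median log2 ratio of contractile over other Krt14-high cells for 23 gene lists in each library, with the number of genes measured in brackets in the order labelled knockout, labelled wild type, and dashed lines at the medians over all genes (-0.15 and -0.12). The contractile list lies at 1.35 and 1.23, and the wound and alarmin list at -1.90 and -1.88.

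Levels changed step by step along the score and not only at its upper end. Over the 10 equal parts of the score, Tagln had between 42.6 CPM in the lowest and 4854 CPM in the highest part of the library labelled knockout, and between 49.8 and 4460 CPM in the library labelled wild type. The summed focal adhesion list ran from 1700 to 4422 CPM and from 1617 to 4241 CPM, with every part at or above the one before it. Cdkn1a, the gene of the cell cycle inhibitor p21, ran the other way, from 4247 to 1500 CPM and from 3103 to 963 CPM. The lowest part held 43 cells labelled knockout and 264 labelled wild type, the highest 171 and 135.

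**Figure D4:**
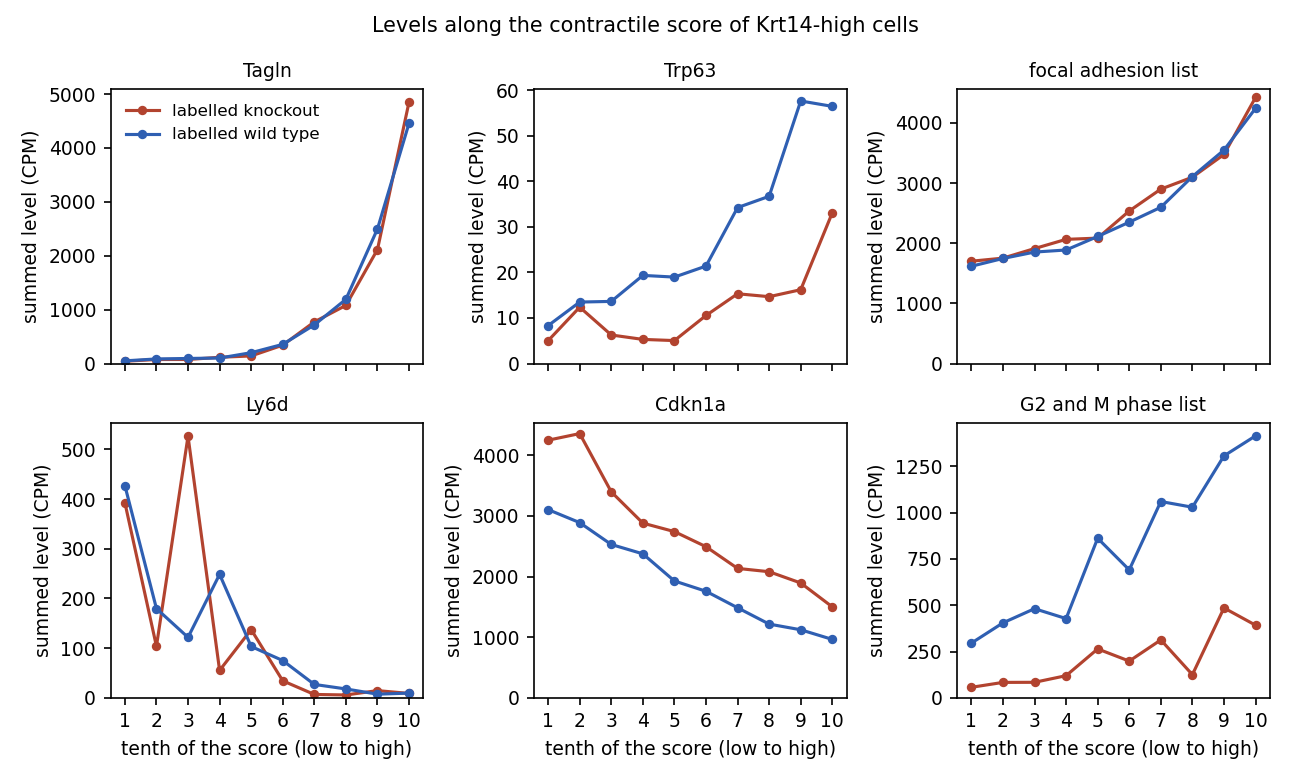
Summed level (CPM) of 4 genes and 2 gene lists in 10 equal parts of the score over Krt14-high cells, by library. Tagln and the focal adhesion list are nearly superimposed in both libraries, whereas Trp63 and the G2 and M phase list lie lower in the library labelled knockout and Ly6d is uneven because few cells hold much of it.

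More growth arrest genes were lower than higher in contractile cells. Of 15 CDK inhibitors and p53 targets 6 were lower, 0 higher and 9 neither in the library labelled knockout. In the library labelled wild type 8 were lower, 1 higher and 6 neither. Over all genes 16.8% were lower and 6.5% higher in the library labelled knockout, and 15.3% and 9.04% in the library labelled wild type. Cdkn1a had 1692 against 2671 CPM, and 985 against 2182 CPM. Cdkn2a, the locus of p16 and p19, had 80.2 against 214 CPM, and 68.5 against 172 CPM, and Cdkn1c had 8.10 against 35.8 CPM, and 4.76 against 22.1 CPM.

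With the main choice of processing, cell cycle genes were higher mainly in the library labelled wild type. There 27 of 28 G2 and M phase genes were higher in contractile cells, with a median log2 ratio of 1.24, against 8 of 27 in the library labelled knockout, with a median of 0.37. The difference between these medians was not tested. Over the alternatives of processing the median ran between -0.0069 and 1.52 in the library labelled knockout. In the library labelled wild type it ran between -0.083 and 1.36, so the order of the libraries depended on the processing. Top2a, the topoisomerase gene of dividing cells, had 7.39 against 6.31 CPM in the library labelled knockout and 62.8 against 24.2 CPM in the library labelled wild type. A cell was counted as high in G2 and M genes when it lay in the top 15% of Krt14-high cells for their summed level. Of contractile cells 28 (11.1%, 7.48 to 15.6%) were so in the library labelled knockout and 80 (38.8%, 32.1 to 45.9%) in the library labelled wild type, against 75 (6.78%) and 277 (18.5%) of the others.

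The contractile cells of the 2 libraries were then compared with each other. Of 9787 genes with at least 100 UMIs, 131 (1.34%) were at least 2-fold higher and 480 (4.9%) lower in contractile cells labelled knockout than in those labelled wild type. The median log2 ratios over these genes were near 0, at -0.0017 in contractile cells and 0.028 in the others. Over all genes with at least 20 UMIs the medians were -0.03 and -0.02. The other Krt14-high cells are given beside each result, since a difference found in them as well is not particular to the contractile cells. No difference between these ratios was tested.

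The contractile programme was at nearly the same level in the contractile cells of both libraries. Of 17 measured genes of its list 4 were at least 1.5-fold higher and 0 lower in the library labelled knockout, with a median log2 ratio of 0.09, against 4 of 19 higher and 2 lower with a median of 0.16 in the other Krt14-high cells. Over all genes 6.7% were higher and 17.4% lower in contractile cells, and 7.2% and 16.9% in the others. Cnn1 had 369 and 360 CPM, Fhl1 461 and 498 CPM and Tagln 4097 and 3839 CPM in contractile cells labelled knockout and wild type. The rule chose cells of the same score range in both libraries, so similar levels of its own genes follow from the choice.

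The 4 higher genes were Actg2, Acta1, Myl9 and Myh11. Myl9 had a log2 ratio of 0.88 (0.84 to 0.92) in contractile cells and 1.62 (1.57 to 1.67) in the other Krt14-high cells. Acta1 had 1.53 (1.49 to 1.58) and 1.32 (1.28 to 1.36), but most of its RNA came from a part of the cells, a spread these intervals do not hold. Acta2, a score gene, had 0.47 in contractile cells and 1.44 in the others. The other cells labelled knockout therefore had more Acta2 and Myl9 than the other cells labelled wild type. The ratios were smaller in contractile cells, but the same score limit chose those cells in both libraries. Acta2 is part of that score, so no difference between the groups of cells is read from these ratios.

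Basal genes were lower in contractile cells labelled knockout. Of 13 measured 0 were higher and 9 lower, with a median of -0.93, against 1 higher and 8 lower of 15 with a median of -0.66 in the other cells. Trp63 had 28.1 CPM in contractile cells labelled knockout and 57.9 CPM in those labelled wild type, a log2 ratio of -1.04 (-1.24 to -0.84), and -0.998 in the other cells. Krt5 had 715 and 1404 CPM, a log2 ratio of -0.97. Col17a1, a hemidesmosome collagen, had 19.9 and 59.4 CPM.

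Cell cycle genes made the widest group difference. In contractile cells 27 of 28 G2 and M genes were lower and 0 higher in the library labelled knockout, with a median of -2.41, and in the other cells also 27 of 28, with a median of -1.68. Ube2c, a ubiquitin-conjugating enzyme gene of mitosis, had 59.3 and 294 CPM in contractile cells. The S phase list gave 15 lower and 0 higher genes of 22 in contractile cells, against 8 lower and 0 higher in the other cells. With cells high in G2 and M genes left out before the contractile cells were chosen, the G2 and M median was -0.12 and the S phase median 0.38, the number of lower genes was 292 in place of 480, and the ratio of the shares of contractile cells was 1.93.

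Stress genes were the group with most genes higher in the library labelled knockout. Of 17 genes of the integrated stress response 8 were higher and 3 lower in contractile cells, with a median of 0.50, against 7 higher and 0 lower in the other cells, with a median of 0.35. Nupr1, a stress-induced transcriptional regulator, had 1076 and 391 CPM in contractile cells labelled knockout and wild type. Trib3, a pseudokinase gene of the response, had 54.8 and 24.0 CPM, and Ddit4 had 334 and 143 CPM. Fgf21, a hormone gene known as a target of the response in liver, had 32.4 and 4.95 CPM, a log2 ratio of 2.71 (2.29 to 3.16), and 1.42 (1.21 to 1.63) in the other cells.

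The largest ratio among named genes higher in the library labelled knockout was that of Esr1, the gene of oestrogen receptor alpha. It had 22.2 CPM in contractile cells labelled knockout and 1.90 CPM in those labelled wild type, a log2 ratio of 3.54 (2.88 to 4.28), and 4.13 (3.79 to 4.48) in the other cells. Mest, an imprinted gene whose locus overlaps Copg2, had 19.2 and 1.81 CPM, a log2 ratio of 3.41 (2.73 to 4.17), and 1.46 (1.15 to 1.77) in the other cells. Scx, a transcription factor gene of tendon that overlaps Bop1, had 29.8 and 7.24 CPM. Pcolce2, Dmpk, H2bu2, Fbxo47, Kif1a, Mn1, Slc4a11 and Il34 made up the rest, with log2 ratios between 2.004 for Il34 and 2.75 for Pcolce2 in contractile cells.

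At the other end stood Tnfsf15, a cytokine gene of the TNF family, with 3 UMIs in contractile cells labelled knockout and 123 in those labelled wild type. Its log2 ratio was -5.45 in contractile cells and -3.22 in the others. Ska1, Aunip, Sgo2a and Rad51ap1 are genes of chromosome segregation or repair, and their log2 ratios lay between -3.70 for Ska1 and -3.13 for Rad51ap1. Without cells high in G2 and M genes, Aunip and Rad51ap1 had 0.77 and 0.50. Crip1, a LIM-domain protein gene, had 4.72 and 51.7 CPM in contractile cells labelled knockout and wild type. Tmem54, Dnajc12, Khk, Smpdl3b, Lrp11 and Gchfr completed the set.

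**Figure D5:**
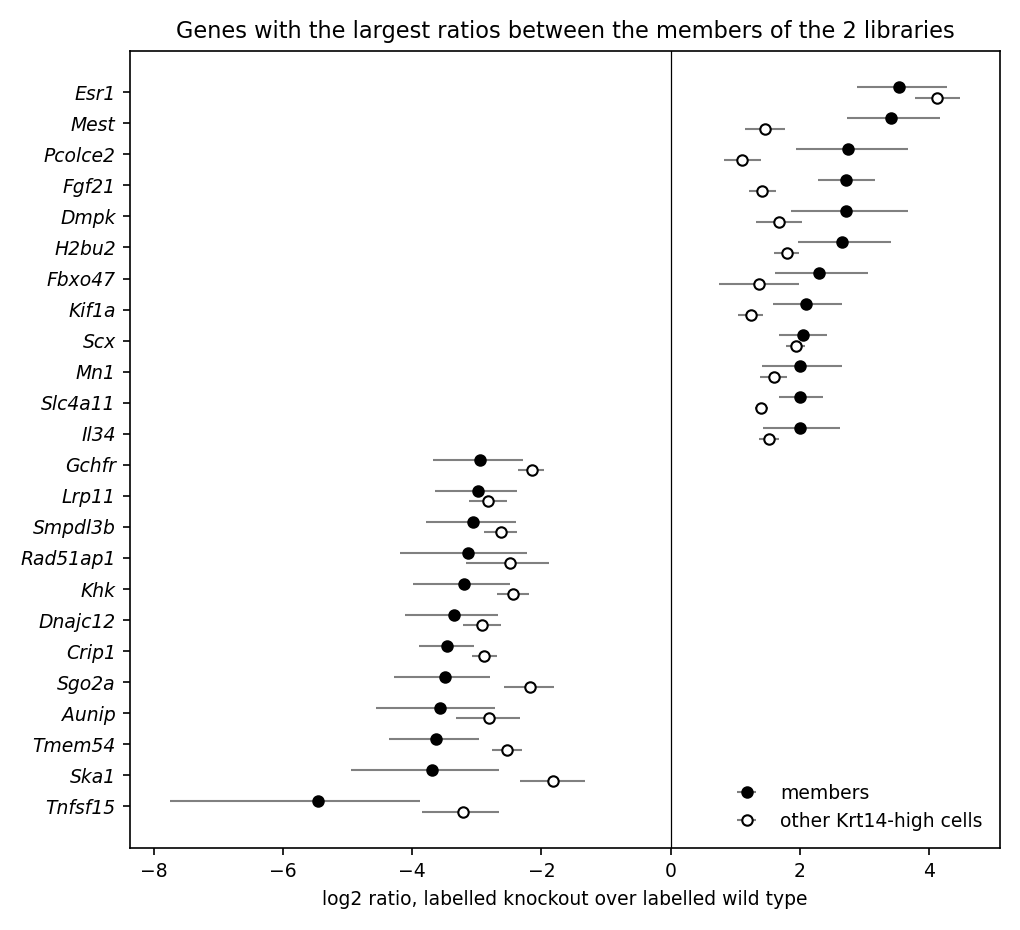
Log2 ratio of the library labelled knockout over the library labelled wild type for the 12 highest and 12 lowest named genes in contractile cells (filled, named members in the legend) and in the other Krt14-high cells (open), with 95% counting intervals. Every gene has the same direction in both groups of cells, from Esr1 at 3.54 to Tnfsf15 at -5.45 in contractile cells.

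CArG boxes of the kind shown for Acta2, Fhl1 and Myl9 were counted in the promoters of all tested genes. The search covered both strands of the 250 bases before each start, with a box called exact when its 6 middle letters were all A or T. An exact box was found in 9 of 98 genes higher in contractile cells of both libraries with a window (9.18%), in 3 of 229 lower genes (1.31%) and in 134 of 8784 tested genes (1.53%). With 1 letter off allowed, the shares were 15.3%, 10.0% and 9.53%. Besides Fhl1, Myl9 and Acta1 the 9 genes were Cbr2, Clec2e, Prune2, Rnf128 and the gene models 1700009N14Rik and 4833412C05Rik. Of 18 genes of the contractile list with a window 6 held an exact box (33.3%). Unlike the list counts above, the higher genes and the contractile list here include the 3 score genes. Fhl1, with its exact box, is 1 of them, so these shares partly restate the rule. A match describes letters in a window, is not evidence of binding, and rests on a set chosen by RNA levels.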

How the data were processed

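Single-cell RNA was measured in 2 libraries. The authors deposited whole-number UMI counts per gene and cell for each library, not normalized, per the file contents, with Cell Ranger 2.1, Seurat 2.0 and build mm10 named in the submitters' processing notes. How cells were filtered before deposit is not given in the sources used here. Of 36528 gene identifiers 31049 matched a symbol, and the 5479 others held 2.67% of UMIs.

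No cell was removed and no doublet caller was applied, except in an alternative. Counts were summed per group of cells and library and scaled to CPM of the summed UMIs. Log2 ratios have conditional exact 95% intervals, and shares have exact Clopper-Pearson intervals. These cover counting error only, and with 1 library per genotype no test was made. Genes needed 100 UMIs and a 2-fold difference to be called, and list genes 20 UMIs and a 1.5-fold difference. The 34 gene lists comprise 24 of pathways, 1 of RNA quality and 9 of other cell types. Python 3.11.15, numpy 2.4.6, scipy 1.17.1, pandas 2.3.3 and scanpy 1.11.5 were used, and the calculation was tested on simulated data.

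Named genes were those of the 12 highest and 12 lowest ratios in each comparison, a set fixed by name and examples of each list. Genes of which 1 cell held over 20% of the UMIs compared in a library (between contractile cells of the libraries, only where that library had at least 20 UMIs), genes at 10 times the level in cells under the Krt14 limit, sex-linked markers, haemoglobins, mitochondrial genes and unnamed models were left out of the ranking. Some genes and 1 list are not reported here. The members of the set and the lists were chosen with earlier results of these data known. Promoter windows are from RefSeq, assembly GRCm38.p6. Alternatives covered the score, the share taken, the Krt14 and UMI minimums, depth, scaling, single cells, doublets and other lineages.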

Additional observations from a re-analysis of the deposited data

Results flagged for a closer look

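Pcolce2, which encodes an enhancer of procollagen processing, had opposite directions in the 2 libraries. In the library labelled knockout its log2 ratio of contractile over other Krt14-high cells was 0.63, with 8.99 against 5.80 CPM. In the library labelled wild type it was -1.01, with 1.33 against 2.68 CPM. The contractile cells held 101 UMIs in the library labelled knockout and 14 in the library labelled wild type. The difference between the libraries was not tested.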

How the results depend on the processing

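No paired analysis was possible because each genotype has 1 library. Over all alternatives the ratio of the shares of contractile cells, labelled knockout over labelled wild type, stayed above 1, with the lowest value of 1.25 without Acta2 in the score and the highest of 1.93 without cells high in G2 and M genes. Taking the top 15% within each library gives no such ratio. Genes lower in contractile cells labelled knockout than in those labelled wild type numbered 480, and 292 without cells high in G2 and M genes, 750 at a minimum of 50 UMIs and 295 at 200 UMIs, where 80 were higher. Genes lower in contractile than in other cells of both libraries numbered 205 against the other cells low in suprabasal and wound genes, an alternative chosen after seeing the data, as was leaving out cells high in G2 and M genes. Trp63 was found without thinning in 45.8% and 80.6% of contractile cells labelled knockout and wild type, and in 22.4% and 41.8% of the others. Directions that reversed without cells high in G2 and M genes were those of the G2 and M list in contractile over other cells labelled wild type, at -0.083, and, between contractile cells, of Aunip at 0.77, Rad51ap1 at 0.50 and the S phase list at 0.38. Klk6 at 0.0307 and Sprr1a at 0.66 reversed in the library labelled knockout against the other cells low in suprabasal and wound genes. The cause was not tested. The G2 and M median of contractile over other cells labelled knockout, 0.37 with the main choice, ran between -0.0069 and 1.52 over the alternatives. In all, 94 of the recomputed counts and shares kept their value within the limits set and 11 moved further. Of list medians 1403 kept their value and 11 moved further, and of named-gene ratios 2096 kept theirs and 653 moved further. Beside the reversals given, 73 medians and 50 ratios of genes or lists below the fold limits changed sign, among them Krt14 in contractile over other cells, at 0.35 in the library labelled knockout and 0.27 in the library labelled wild type against the other cells low in suprabasal and wound genes, and Vim at 0.52 in the library labelled knockout without cells high in G2 and M genes. Depth limits Myh11, Mylk, Des and Tnfsf15, which rest on few UMIs.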

Other observations

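More inflammatory genes were lower than higher in contractile cells. Of 17 chemokines and cytokines 10 were lower and 2 higher in the library labelled knockout, and 8 lower and 3 higher in the library labelled wild type. For all list counts given here, the shares over all genes were 16.8% lower and 6.5% higher in the library labelled knockout. They were 15.3% and 9.04% in the library labelled wild type. The neutrophil chemokine gene Cxcl5 had 11.8 CPM in contractile cells against 179 CPM in the others of the library labelled knockout, and 109 against 560 CPM in the library labelled wild type. Csf3, the gene of a granulocyte growth factor, was higher, with 200 against 119 CPM, and 353 against 181 CPM.

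Matrix protease genes differed between the libraries in their counts, with 7 of 17 higher and 1 lower in the library labelled knockout, and 3 higher and 3 lower in the library labelled wild type. The difference was not tested. Plaur, the receptor gene of urokinase, had 1051 against 497 CPM, and 1252 against 542 CPM. Of 17 keratinocyte transcription factor genes 4 were higher and 5 lower in the library labelled knockout, and 4 higher and 6 lower in the library labelled wild type. Zfp750, a factor of differentiation, had 29.3 against 46.2 CPM, and 20.8 against 45.1 CPM.

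Simple epithelium genes numbered 1 higher and 2 lower of 9 in each library, with Krt19 at 41.1 against 248 CPM, and 74.8 against 238 CPM. Of the immediate early genes 0 of 11 were higher and 0 lower in the library labelled knockout, and 2 of 12 higher and 2 lower in the library labelled wild type. Of the mitochondrial RNA list 0 of 28 were higher and 1 lower, and 1 of 30 higher and 3 lower. S phase genes numbered 3 higher and 0 lower of 22 in the library labelled knockout, and 10 higher and 0 lower in the library labelled wild type. Of 17 integrated stress response genes 2 were higher and 3 lower in contractile cells of each library. These stress counts lie near the shares over all genes and are not read as a difference.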
